A study of Mus musculus with 6 samples.

Results

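The genes described here are 42 genes of the extracellular matrix and of the fibroblasts that make it. They were chosen by name for their function, with earlier results of these data known. A member was followed through the probe sets that name it and no other gene, and the brightest on average over the arrays stood for it. There was 1 further probe set that names a member beside another gene, and it was not used. Of the 42, 40 were measured among 18193 genes in all. Fbn1 and Spp1 were not analysed here. The series profiled whole hearts of mice at postnatal day 10, with 3 wild-type mice and 3 mice with knockout of miR-1-2, 1 array each. The miR-1-2 gene encodes the muscle microRNA miR-1, and the comparison asks which heart transcripts differ without this copy. The sources used here name no strain, litter, sex or allele design. The microRNA was not analysed here, which leaves the genotype labels without a check on the targeted gene. Values are log2 expression values, in which a step of 1 is a doubling. Values of different genes come from different probes, so levels were not compared between genes.

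The extracellular matrix of the heart is made largely by resident fibroblasts, with contributions from endothelial, smooth muscle and epicardial cells. Fibrillar collagens carry tensile load between muscle bundles, basement membranes of laminin and type IV collagen wrap each myocyte and capillary, and elastic fibres give recoil to the great vessels and valves. In fibrosis, fibroblasts are activated and the genes of fibrillar collagens, periostin and protease inhibitors rise together. In the weeks after birth the heart normally lays down matrix while it grows.

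Some differences between the 6 arrays ran across the genotypes. Array medians lay between 6.03 and 6.11. Xist, the transcript that silences an X chromosome in female cells, was between 11.91 and 12.19 in all wild-type arrays and in knockout replicate 2, and at 7.55 and 7.57 in knockout replicates 1 and 3, so the sexes were not balanced. Cardiomyocyte markers were at high levels in all arrays (Myh6, the myosin of adult ventricle, between 14.31 and 14.40). Ucp1, the uncoupling protein of brown fat, reached 9.45 in the first wild-type and 10.39 in the first knockout array, and lay between 5.22 and 6.68 in the others. Markers of macrophages had a lower knockout mean in 10 of 10 genes, and 0 passed. The groups did not overlap for 6 of 10 (60%), beside 8.86% of all genes. An unadjusted p under 0.05 in limma was found for 5 of 10, beside 4.1% of all genes. The median log2 difference of these markers was -0.26, and -0.16 without wild-type replicate 1. The mean log2 level of that list was between 7.53 and 7.85 in wild-type arrays and between 7.30 and 7.52 in knockout arrays. Lymphoid and thymus markers had a mean level of 6.25 in wild-type replicate 1, of 5.91 in knockout replicate 1 and between 5.66 and 5.83 elsewhere. In whole hearts, fewer cells of a type and less RNA per cell cannot be told apart.

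Matrix and fibroblast genes as a list differed little between the genotypes. Of 40 members, 22 were higher and 18 lower in knockout, a share of 55% beside 50.2% of all genes. Their median log2 difference was 0.0070, beside 5e-04 over all genes, and the differences ran from -0.17 (Thy1) to 0.24 (Timp1). No member passed over all genes (0 of 40, with a background of 0% of 18193 genes, adjusted p = 1.00 for every member with limma). Unadjusted p-values under 0.05 were found for 2 members, beside 4.1% of all genes: Timp1, which was higher in knockout like 2.19% of all genes, and Thy1, which was lower like 1.91%. The same 2 were the members whose groups did not overlap, 5% of 40, beside 8.86% of all genes (4.57% higher and 4.28% lower). With the replicate number as a block, 13 of all genes passed (0.0715%) and again 0 members, the lowest adjusted p being 0.492 for Timp1 in limma. Unadjusted p-values under 0.05 with the block were found for 3 members, beside 7.29% of all genes: Timp1 and Timp3 on the higher side, beside 4.29%, and Thy1 on the lower side, beside 3%.

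In the default fit, which holds no term for sex, the size of any difference was bounded for most members. The 95% confidence interval of the difference lay within a change of 1.5-fold in either direction for 37 of 40 members, beside 98.1% of all genes and 97.6% of genes with a mean above 6. The exceptions were Eln, Thbs1 and Tnc, whose intervals reached -0.90, 0.63 and -0.60 on the log2 scale. For all 40 the interval lay within 2-fold. The p-values that missed the threshold do not show that the genotypes were alike, and these intervals give the differences that remain possible under the model. With the Xist level as a covariate the median member difference was 0.21, beside 0.007 in the default fit. In that setting knockout replicate 2 carries most of the contrast. The intervals therefore hold for the default fit only.

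**Figure D1:**
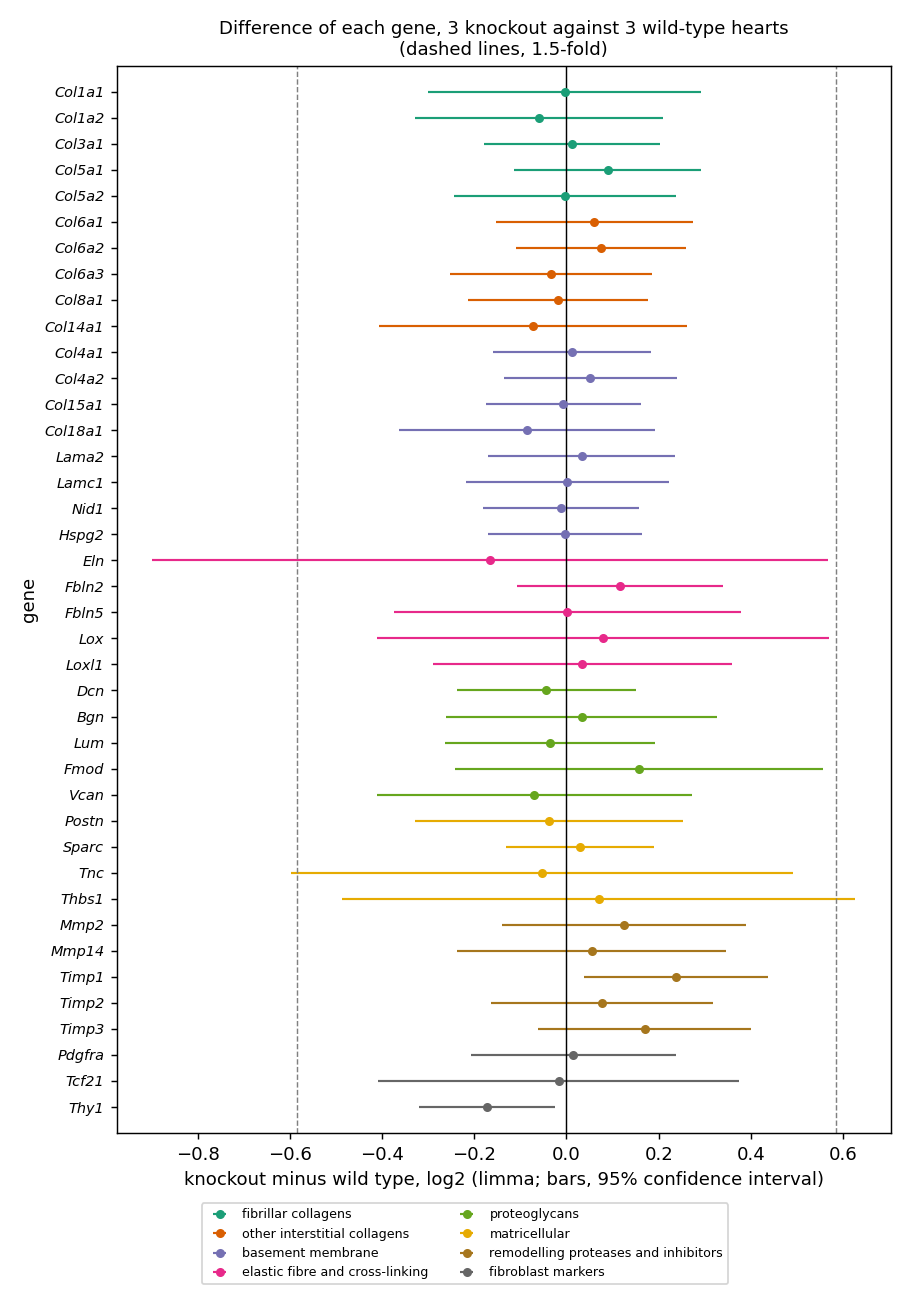
Log2 difference of each member, knockout minus wild type (horizontal axis), with its 95% confidence interval from limma, 3 arrays a group. Genes are coloured by role and dashed lines mark 1.5-fold. Points lie between -0.17 and 0.24, and only the intervals of Timp1 and Thy1 leave out 0, before any adjustment for the number of genes.

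Fibrillar collagens were at the same mean level in both groups to within 0.089 on the log2 scale. Col1a1 and Col1a2 encode the chains of type I collagen, the main fibrillar collagen of heart. Col1a1 averaged 11.43 in both groups, with an SD of 0.25 over 3 wild-type and 0.14 over 3 knockout arrays, with a 95% interval of the difference from -0.30 to 0.29. Col1a2 was at 12.99, 12.69 and 12.98 in wild-type replicates 1 to 3 and at 12.82, 13.01 and 12.65 in the knockout replicates, a difference of -0.060. The lowest value of either group was nearly the same and the groups overlapped. Col3a1, the type III chain that forms finer fibrils with type I, differed by 0.012 (interval -0.18 to 0.20). Of the type V chains, which set fibril diameter, Col5a2 differed by -0.0026. Col5a1 was at 9.92, 9.95 and 10.07 in wild type and at 9.95, 10.22 and 10.03 in knockout, and its difference of 0.089 rested mainly on knockout replicate 2.

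The other interstitial collagens went both ways. Type VI collagen forms beaded filaments near cell surfaces, and its chains Col6a1, Col6a2 and Col6a3 differed by 0.061, 0.074 and -0.034. Col6a2 stood at 10.89, 10.91 and 10.91 in wild type, a spread of 0.013 (SD), and at 10.85, 11.11 and 10.98 in knockout. Its knockout values thus lay on both sides of a tight wild-type group. Col14a1, a collagen that sits on the surface of fibrils, was at 9.86, 9.88 and 10.15 in wild type and at 9.68, 10.22 and 9.77 in knockout, a difference of -0.073 with overlapping groups. Col8a1, a short-chain collagen of vessel walls, differed by -0.018.

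Basement membrane genes had the smallest spread between arrays of any role, with a median SD within groups of 0.085. They differed by -0.086 to 0.052, 4 of 8 higher and 4 lower. Type IV collagen is the network that gives basement membranes their strength, and its chains Col4a1 and Col4a2 differed by 0.013 and 0.052. Col4a2 was at 11.56, 11.68 and 11.73 in wild type and at 11.59, 11.78 and 11.76 in knockout. It was higher in knockout in 3 of 3 pairs of same-numbered arrays, like 15.2% of all genes, and lowest in the first replicate of each group. Col4a1 was likewise lowest in wild-type replicate 1 (12.30) and knockout replicate 1 (12.31) and lay between 12.40 and 12.45 in the other arrays. Col18a1, whose product carries endostatin at its end, was at 8.87, 9.12 and 9.16 in wild type and at 8.73, 9.15 and 9.01 in knockout, a difference of -0.086. It too was lowest in both first replicates. Its relative Col15a1 differed by -0.0068. Lama2 and Lamc1, the laminin chains of muscle basement membrane, differed by 0.033 and 0.0020. Nid1 encodes nidogen, which links laminin to collagen IV, and Hspg2 encodes perlecan, a heparan sulphate proteoglycan. These differed by -0.011 and -0.0035.

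Among the elastic fibre and cross-linking genes were the members with the largest spread over the knockout hearts, Eln (SD 0.79) and Lox (SD 0.52). Eln, which encodes elastin, was at 11.52, 11.64 and 11.72 in wild type and at 11.67, 12.13 and 10.59 in knockout. The wild-type arrays lay within 0.10 (SD), while knockout replicate 2 was above and knockout replicate 3 below all of them. Lox, the lysyl oxidase that cross-links collagen and elastin, showed the same split, at 8.18, 8.14 and 8.17 in wild type and 8.21, 8.78 and 7.74 in knockout. Fbln5 encodes fibulin-5, which is needed to assemble elastin. It was at 8.55, 8.61 and 8.71 in wild type and at 8.52, 9.04 and 8.31 in knockout. Lox and Fbln5 are given by array because their values were seen to split in this way. The mean differences were -0.17 for Eln, 0.080 for Lox and 0.0018 for Fbln5. Without knockout replicate 3 the Eln difference was 0.27, and without knockout replicate 2 it was -0.50, so its direction rested on which of these hearts was counted.

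Other members of the elastic group split less. Fbln2, which encodes fibulin-2 of elastic fibres and valves, was at 9.26, 9.23 and 9.39 in wild type and 9.26, 9.59 and 9.39 in knockout, a difference of 0.12 within overlapping groups. Loxl1, a lysyl oxidase of elastic fibres, differed by 0.035. Markers of smooth muscle and pericytes went both ways in knockout replicate 3, where 6 of 10 were above their means over 6 arrays and the median deviation was 0.087. Myh11, smooth muscle myosin, was at 7.70 there and between 7.98 and 8.41 in the other arrays, and Tagln was at 8.87 there and between 9.13 and 9.39 elsewhere. Pdgfrb (10.11), Kcnj8 (8.98), Abcc9 (11.50) and Notch3 (9.26) were at their highest of the 6 arrays there, and Acta2 (13.12) was above every wild-type array. In knockout replicate 2, where Eln and Lox were highest, 8 of 10 of these markers were above their means and the median deviation was 0.091. Tagln (9.39), Acta2 (13.23) and Cnn1 (7.42) were at their highest of the 6 arrays there, while Myh11 (8.18) was below wild-type replicate 1 (8.21). The part of smooth muscle content in the elastin values was not tested.

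**Figure D2:**
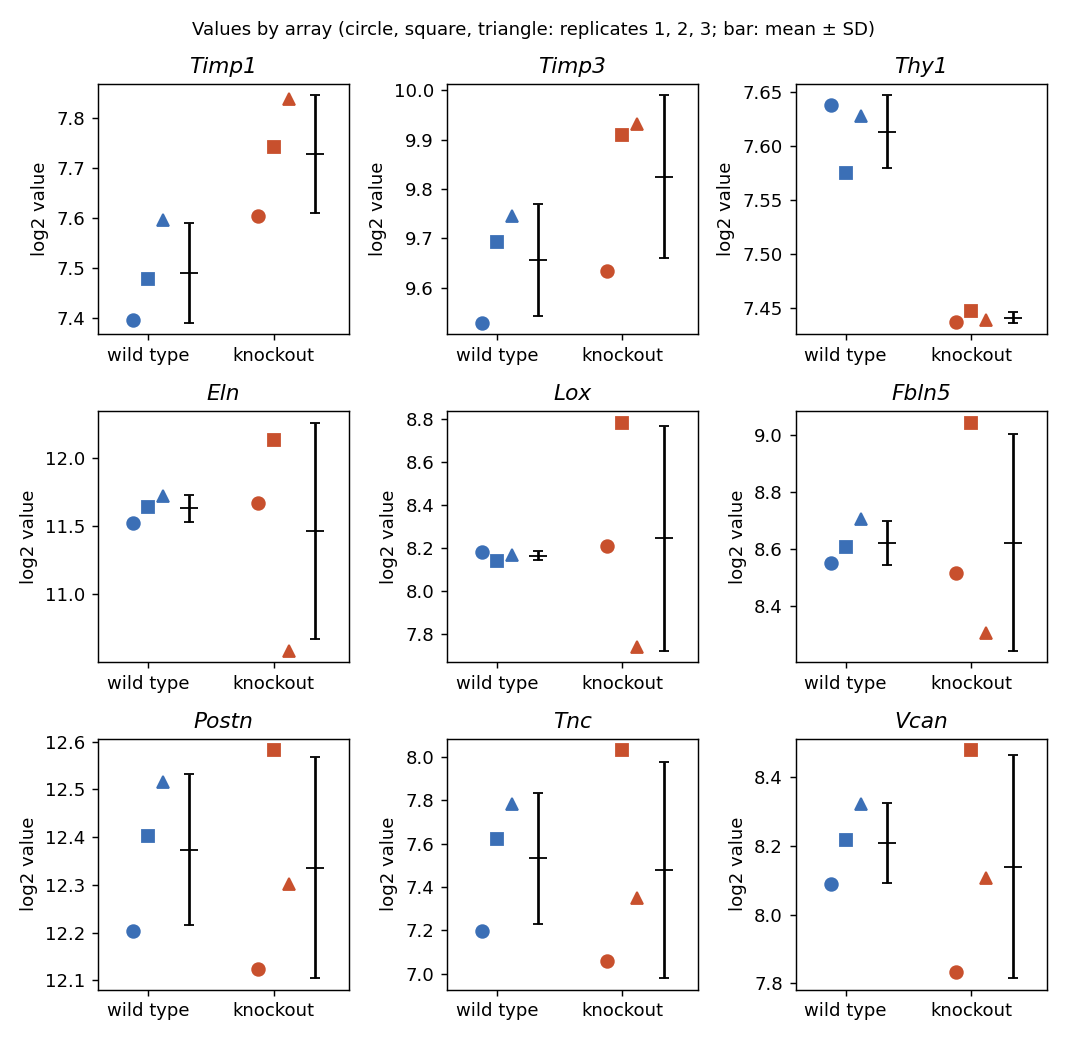
Log2 values (vertical axis, a separate scale for each gene) of 9 members by group, with circles, squares and triangles for replicates 1, 2 and 3 and a bar for the mean ± SD of 3 arrays. Timp1 and Thy1 have groups that do not overlap, and the knockout values of Eln, Lox and Fbln5 lie above and below the wild-type values.

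Of 5 proteoglycans 2 were higher and 3 lower in knockout, and 0 passed. Decorin (Dcn), biglycan (Bgn) and lumican (Lum) regulate the assembly of fibrils, and they differed by -0.044, 0.033 and -0.035. Fmod encodes fibromodulin, a relative found in tendon and valves. It was at 7.35, 7.51 and 7.43 in wild type and at 7.18, 7.99 and 7.58 in knockout, a difference of 0.16 that was -0.046 without knockout replicate 2. Vcan encodes versican, the large hyaluronan-binding proteoglycan of embryonic heart matrix. It was at 8.09, 8.22 and 8.32 in wild type and at 7.83, 8.48 and 8.11 in knockout, a difference of -0.070. In both genes the knockout values spanned the whole wild-type range.

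Matricellular genes, whose products signal to cells more than they build structure, varied with the array more than with the genotype. Thbs1 encodes thrombospondin-1, an activator of latent TGF-beta. It was at 6.61, 7.37 and 7.50 in wild type and at 6.87, 7.58 and 7.24 in knockout. Tnc encodes tenascin-C, a matrix protein of development and repair. It was at 7.20, 7.62 and 7.78 in wild type and at 7.06, 8.03 and 7.35 in knockout. Both were lowest in the first replicates, and their group differences were 0.070 and -0.053. Postn, which encodes periostin, a protein of valve development and activated fibroblasts, was at 12.20, 12.40 and 12.51 in wild type and at 12.12, 12.58 and 12.30 in knockout, a difference of -0.038. Sparc, which encodes a collagen-binding glycoprotein, differed by 0.029 (interval -0.13 to 0.19).

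Some members of different roles ranked the 6 arrays alike. Postn, Tnc, Vcan, Mmp14 and Tcf21 had the same order of arrays from low to high: knockout replicate 1, wild-type replicate 1, knockout replicate 3, wild-type replicates 2 and 3, then knockout replicate 2. These 5 members are 12.5% of 40, and 116 of all genes (0.638%) had this order. The order was picked after the values were seen, and all genes share the same 6 RNA samples.

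The bases just before the annotated starts of these genes are shown to set the members that share this order side by side. They run from 40 to 11 bases before each start in RefSeq (GRCm38.p6), 5′ to 3′ on the strand of the gene, and capitals mark the letters TATAA, the core of a TATA box. All 5 genes had an entry, with 7 starts in all.
Postn, start 1, chr3:54359227-54359256, + strand: ccggctcttttttttttttttttttttttt
Postn, start 2, chr3:54361067-54361096, + strand: acagcccagagctaTATAAactcagctctc
Tnc, start 1, chr4:64047026-64047055, - strand: ggctgtgcctttaactcaccaactgaaaaa
Tnc, start 2, chr4:64046947-64046976, - strand: aaggagctccctaTATAAgcctgccaaagc
Vcan, chr13:89742523-89742552, - strand: gtccctaccgcaggctgagggagctccttt
Mmp14, chr14:54431558-54431587, + strand: caccgaaaaaggagggcattggggcggggg
Tcf21, chr10:22820154-22820183, - strand: ctattccccagataaattcttagtgtccac
TATAA began 26 bases before the second start of Postn and 27 bases before that of Tnc, and was in neither orientation in the other 5 windows. Of 32851 RefSeq promoter windows of this length, 3.79% held TATAA on the strand of the gene and 4.75% on either strand. Among 33 windows of the 28 members with an entry, 2 held it, those of Postn and Tnc. A match of letters is a description of these windows and not a measured site.

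Remodelling genes were the only role in which all members had a higher mean in knockout (5 of 5, median log2 difference 0.12), and 0 of 5 passed. Without knockout replicate 2, 3 of 5 were higher, with a median of 0.010, and Timp2 and Mmp14 stood at -0.028 and -0.077. Timp1 encodes a secreted inhibitor of matrix metalloproteinases and is induced in many forms of tissue injury. It was at 7.40, 7.48 and 7.60 in wild type and at 7.60, 7.74 and 7.84 in knockout. Every knockout value was above every wild-type value, the nearest by less than 0.01. The difference was 0.24 ± 0.09 (SE), 1.18-fold, with an unadjusted p of 0.0253 and an adjusted p of 1.00 in limma. Timp1 lies on the X chromosome. The knockout array with high Xist, replicate 2, was 0.25 above the wild-type mean, beside a median of 0.22 over the members. The part of sex in the Timp1 difference was not tested.

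Timp3, the inhibitor that stays bound to matrix, was at 9.53, 9.69 and 9.75 in wild type and at 9.63, 9.91 and 9.93 in knockout. It was higher in 3 of 3 same-numbered pairs, like 15.2% of all genes, and by 0.17 on average. Its groups overlapped only through the first replicate of knockout (adjusted p = 1.00, limma). Timp2, which also takes part in activating pro-MMP2, differed by 0.077. Mmp2, the gelatinase that cuts denatured and type IV collagen, differed by 0.12, and by 0.010 without knockout replicate 2. Mmp14, the membrane protease that activates it, differed by 0.055.

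Of the 3 fibroblast markers 1 was higher and 2 were lower in knockout, and 0 passed. Pdgfra, the growth factor receptor that marks resident fibroblasts, averaged 8.80 with an SD of 0.019 over 3 wild-type arrays, and 8.81 with an SD of 0.19 over 3 knockout arrays. Tcf21, a transcription factor of the fibroblast lineage, was at 8.77, 8.88 and 9.10 in wild type and at 8.58, 9.30 and 8.82 in knockout, a difference of -0.017. Thy1, a surface glycoprotein of fibroblasts and also of T cells, was at 7.64, 7.57 and 7.63 in wild type and at 7.44, 7.45 and 7.44 in knockout. All knockout values were below all wild-type values, and each group was tight. The difference was -0.17 ± 0.06 (SE), 0.887-fold, with an unadjusted p of 0.0266 and an adjusted p of 1.00 in limma. Of 9 lymphoid and thymus markers 8 had a lower knockout mean and 0 passed, with a median of -0.10 that was -0.049 without wild-type replicate 1. Their mean level was 6.25, 5.74 and 5.83 in wild-type replicates 1 to 3 and 5.91, 5.69 and 5.66 in the knockout replicates. Their part in the Thy1 difference was not tested. Acta2, smooth muscle actin, which also marks activated fibroblasts, was at 12.89, 12.76 and 12.63 in wild type and at 13.19, 13.23 and 13.12 in knockout, or 0.42 higher on average, with an adjusted p of 0.721 in limma.

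The clearest pattern across the list followed single hearts. Knockout replicate 2 was the highest of the 6 arrays for 30 of 40 members, beside 23.5% of all genes, and it was above all wild-type arrays for 32 of 40, beside 33.8%. Knockout replicate 1 was below all wild-type arrays for 20 of 40 members, beside 28.2% of all genes, and knockout replicate 3 for 11, beside 29.8%. Relative to the wild-type mean, the median member stood at -0.071 in knockout replicate 1, 0.22 in replicate 2 and -0.048 in replicate 3. Among wild-type arrays, replicate 3 was above the members' means over 6 arrays for 33 of 40, replicate 1 for 11 and replicate 2 for 14. The 3 knockout hearts therefore did not move one way, and the near-zero difference of the groups is an average over them.

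**Figure D3:**
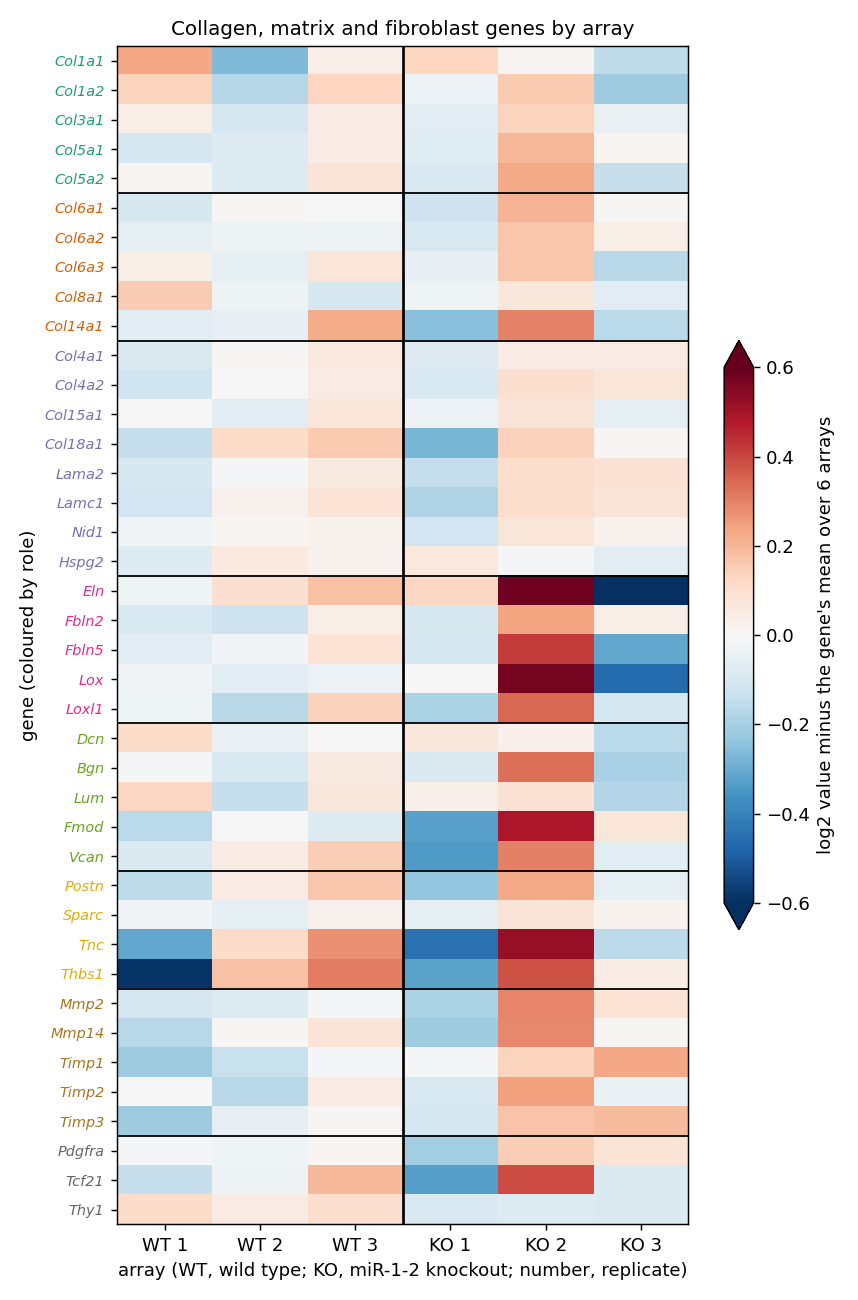
Log2 value minus the gene's mean over 6 arrays (colour) for 40 members (rows, grouped and coloured by role) in each array (columns). Colours are clipped at 0.6 in either direction, which Eln passes in knockout replicate 3. The column of knockout replicate 2 is above the mean for 38 of 40 members, and that of knockout replicate 1 for 6.

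The direction of the list changed with the hearts counted. Without knockout replicate 2, the knockout mean was higher for 7 of 40 members and their median log2 difference was -0.055. Without knockout replicate 1, 31 were higher, with a median of 0.084. Set against all wild-type arrays on its own, knockout replicate 2 was higher for 38 of 40 members. All arrays of that comparison have high Xist, and with 1 knockout array, genotype and single-heart differences cannot be told apart in it. Knockout replicates 1 and 3 have low Xist, so sex and single-heart differences cannot be told apart among the knockout arrays. In the fits without knockout replicate 2 or without knockout replicate 1, 0 members passed over all genes in limma.

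Endothelial markers were above their means over 6 arrays for 1 of 10 genes in each first replicate and for 8 of 10 in wild-type replicate 3 and knockout replicates 2 and 3. Their median deviation was -0.19 in wild-type replicate 1, -0.15 in knockout replicate 1 and 0.14 in knockout replicate 2. Basement membrane genes, which endothelial cells make in large part, were above their means for 1 of 8 in each first replicate. The count was 5 of 8 in wild-type replicate 2 and 8 of 8 in wild-type replicate 3. It was 7 of 8 in knockout replicate 2 and 6 of 8 in knockout replicate 3. Brown and white fat markers went the other way, with 6 and 8 of 8 above their means in the first replicates of wild type and knockout and 0 of 8 in knockout replicate 2. The part of tissue composition in the members' values was not tested.

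**Figure D4:**
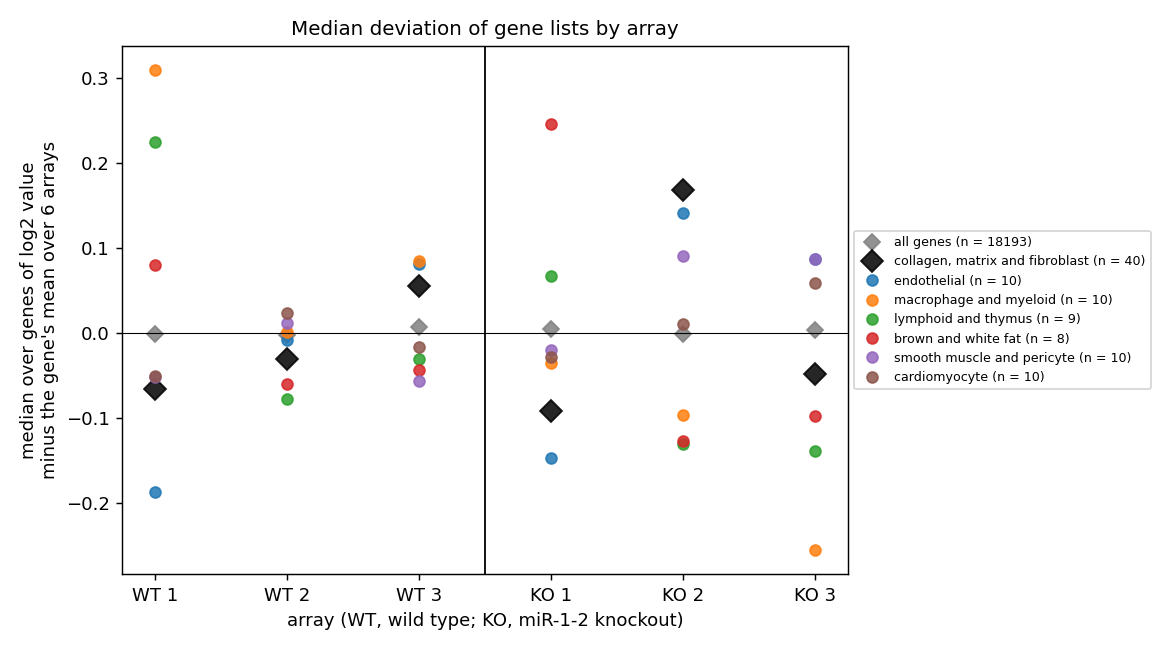
Median over genes of the log2 value minus the gene's mean over 6 arrays (vertical axis) for the members, for all genes and for marker lists of other cell types, in each array (horizontal axis). The members stand at 0.17 in knockout replicate 2 and at -0.093 in knockout replicate 1, while all genes stay between -0.0022 and 0.0068.

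Of 19 measured enzymes and chaperones of collagen, 15 were higher and 4 lower, a share of 78.9% higher beside 50.2% of all genes. Their median log2 difference was 0.069, and 0 passed over all genes. Without knockout replicate 2, 10 were higher and 9 lower. Crtap, a partner in the prolyl hydroxylation of collagen, was at 9.12, 9.21 and 9.23 in wild type and at 9.29, 9.48 and 9.39 in knockout, a difference of 0.20. Pcolce, which enhances removal of the procollagen end, was at 10.46, 10.34 and 10.37 in wild type and at 10.50, 10.59 and 10.63 in knockout, a difference of 0.18. Neither gene's groups overlapped, which makes 10.5% of the 19 genes, beside 8.86% of all genes. Their unadjusted p-values of 0.0321 and 0.0333, under 0.05 like those of 4.1% of all genes, became 1.00 after adjustment (limma).

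The remaining matrix and signalling lists went both ways, and 0 of their genes passed over all genes. Of 33 other matrix genes 19 were higher (57.6%, median 0.023). Of 26 genes of TGF-beta and profibrotic signalling 17 were higher (65.4%, median 0.052). Of 18 matrix receptors 9 were higher (50%, median -4e-04), beside 50.2% of all genes. Without knockout replicate 2 these counts were 14, 9 and 8. The largest differences of these lists were 0.39 for Fbn2 of the other matrix genes and -0.37 for Tgfb2, both with overlapping groups. Tgfb1, the main profibrotic growth factor, differed by -0.046, and its target Ccn2 by -0.26. Ccn2 had values from 9.06 to 10.16 in wild type and from 8.60 to 9.85 in knockout. Fn1, fibronectin, differed by 0.028. Itga7, the laminin receptor chain of muscle, alone of 18 receptors had an unadjusted p under 0.05, beside 4.1% of all genes (1.91% lower). It was at 8.78, 8.76 and 8.62 in wild type and at 8.48, 8.51 and 8.63 in knockout, a difference of -0.18 with groups that just overlapped (adjusted p = 1.00, limma).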

How the data were processed

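Messenger RNA of whole mouse hearts was measured on 6 Affymetrix arrays, 1 per animal, in 3 wild-type and 3 knockout mice grouped by their titles. The deposited table holds RMA values on a log2 scale, which the authors computed with the Bioconductor package affy (version not given in the sources used here), per the series' design text, after scanning with GCOS 1.4, per the submitters' processing notes. RMA subtracts background, gives all arrays 1 distribution and combines each probe set's probes. It compresses differences of dim probe sets and removes a change shared by most genes.

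The 64 control probe sets were left out of 45101, and 45037 remained. Platform symbols were brought up to date with RefSeq (GRCm38.p6) by their gene identifiers, and 18031 of 18193 genes matched. A gene was represented by the probe set with the highest mean among those that name 1 gene. Of 42 listed members 40 were measured. The fit was run over all 18193 genes with limma 3.58.1 in R 4.3.3 (lmFit, eBayes), with Benjamini-Hochberg adjustment and a threshold of 0.05, and was tested on simulated data. The members and lists were chosen with earlier results of these data known. All members are named. Values of every array are given for members with an unadjusted p under 0.05, with groups that do not overlap, or with 1 of the 2 largest differences of their role. Of the matrix and signalling lists, genes with an unadjusted p under 0.05 are named. Markers of other cell types are given as lists, and any single marker or further gene was chosen after its values were seen.

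The titles give both groups replicate numbers 1 to 3. After the group means were subtracted, arrays with the same number correlated at 0.54, 0.18 and 0.13 for numbers 1, 2 and 3. Arrays with different numbers correlated at 0.35 (wild-type replicate 2 with knockout replicate 3) and 0.30 (wild-type replicate 3 with knockout replicate 2), more than those numbered 2 or 3 alike. The replicate number was used as a block in an alternative fit only. The labels name no shared litter, and p-values measure the spread between these 6 samples. Other settings left out arrays, probe sets or dim genes, or changed the normalization, variance model, weights or covariates.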

Additional observations from a re-analysis of the deposited data

How the results depend on the processing

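The call for the members was the same in all but 1 setting: 0 members passed, except with array weights, where 1 did (Timp1, log2 0.31, adjusted p = 0.0439, limma), beside 416 of all genes and 1 gene of the matrix and signalling lists. Over all settings the adjusted p of Timp1 ran from 0.0439 to 1.00. Over all genes 0 passed in the default fit, where 746 had an unadjusted p under 0.05 (limma). The count was 13 in the fit blocked by replicate number, 1 without replicate 1 of both groups and 3 with a gene's probe sets averaged. It ran from 0 to 4 with 1 array left out, with 4 lacking knockout replicate 1 and 2 lacking knockout replicate 2. When each of 45037 probe sets was tested on its own, 3 passed, a count that cannot be set beside those of genes. The block changed no call for a member. The direction of the list rested on single arrays. From 7 to 31 of 40 members were higher in knockout with 1 array left out, with a median log2 difference from -0.055 to 0.084, and the count of 7 was that without knockout replicate 2. It was 38 of 40 with the Xist level as a covariate (median 0.21) and 38 without both low-Xist knockout arrays (median 0.22). In these latter settings knockout replicate 2 alone stands for the knockout or carries most of the contrast. Some settings could not change a member's direction. The filter on dim genes kept all members, whose lowest mean was 7.20 (Thbs1). No member was represented by a probe set with the suffix _x_at or _s_at, so their removal changed no member's values. The replicate block, a trended, robust variance and the test of each probe set on its own leave the differences themselves unchanged. With 3 arrays a group, the number of arrays limits every value.

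The 17 settings include those named above that could not change a direction. Of 40 members, 8 kept their direction in all 17 settings: Col4a2, Col5a1, Col6a2, Fbln2, Mmp2, Thy1, Timp1 and Timp3. The other 32 differed by -0.17 to 0.16, did not pass, and changed sign in at least 1 setting. The cause was not tested.

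With the Xist level as a covariate, 16 members changed sign, to log2 differences of Col1a1 0.0007, Col1a2 0.11, Col5a2 0.21, Col6a3 0.14, Col8a1 0.048, Col14a1 0.25, Col15a1 0.067, Col18a1 0.095, Nid1 0.063, Eln 0.47, Dcn 0.0009, Lum 0.056, Vcan 0.26, Postn 0.20, Tnc 0.48 and Tcf21 0.37. Without both low-Xist knockout arrays, an alternative chosen after seeing the data, in which the lone knockout array is assumed to vary like the wild-type arrays, 16 members changed sign, to log2 differences of Col1a1 0.013, Col1a2 0.13, Col5a2 0.23, Col6a3 0.15, Col8a1 0.058, Col14a1 0.26, Col15a1 0.072, Col18a1 0.097, Nid1 0.066, Eln 0.50, Dcn 0.0078, Lum 0.067, Vcan 0.27, Postn 0.21, Tnc 0.50 and Tcf21 0.38. With array weights, 7 members changed sign, to log2 differences of Col3a1 -0.0088, Nid1 0.016, Fbln5 -0.24, Lox -0.29, Loxl1 -0.037, Bgn -0.11 and Thbs1 -0.0088. With a further quantile normalization, 5 members changed sign, to log2 differences of Lama2 -0.0017, Lamc1 -0.019, Fbln5 -0.035, Loxl1 -0.0056 and Pdgfra -0.022. With the mean of all probe sets of a gene, 8 members changed sign, to log2 differences of Col1a1 0.068, Col3a1 -0.044, Lamc1 -0.028, Hspg2 0.031, Fbln5 -0.023, Mmp14 -0.0048, Timp2 -0.017 and Pdgfra -0.0050. Without replicate 1 of both groups, 8 members changed sign, to log2 differences of Col1a1 0.044, Col5a2 0.047, Col8a1 0.062, Col15a1 0.0072, Nid1 0.033, Vcan 0.024, Thbs1 -0.028 and Tcf21 0.070. Leaving out 1 array at a time, 32 members changed sign in at least 1 fit, with these ranges of log2 difference: Col1a1 from -0.14 to 0.11, Col1a2 from -0.16 to 0.030, Col3a1 from -0.051 to 0.050, Col5a2 from -0.12 to 0.067, Col6a1 from -0.027 to 0.14, Col6a3 from -0.13 to 0.041, Col8a1 from -0.070 to 0.055, Col14a1 from -0.24 to 0.033, Col4a1 from -0.028 to 0.055, Col15a1 from -0.046 to 0.028, Col18a1 from -0.18 to 0.030, Lama2 from -0.011 to 0.11, Lamc1 from -0.054 to 0.092, Nid1 from -0.050 to 0.044, Hspg2 from -0.043 to 0.026, Eln from -0.50 to 0.27, Fbln5 from -0.21 to 0.16, Lox from -0.19 to 0.33, Loxl1 from -0.13 to 0.14, Dcn from -0.088 to 0.026, Bgn from -0.12 to 0.14, Lum from -0.11 to 0.043, Fmod from -0.046 to 0.36, Vcan from -0.24 to 0.084, Postn from -0.16 to 0.068, Sparc from -0.0023 to 0.065, Tnc from -0.33 to 0.16, Thbs1 from -0.21 to 0.25, Mmp14 from -0.077 to 0.18, Timp2 from -0.028 to 0.14, Pdgfra from -0.055 to 0.12 and Tcf21 from -0.22 to 0.14.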

Other observations

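The probe sets that did not stand for a gene gave a second look at the members. The 40 members had 97 probe sets that name only them, between 1 and 8 a gene, and 31 members had more than 1. In 15 of these 31 all probe sets lay on one side of 0, and in the other 16 they did not. All 6 probe sets of Fmod, which encodes fibromodulin, were higher in knockout, by 0.014 to 0.25 on the log2 scale, and so were all 4 of Timp3 (0.072 to 0.17), both of Mmp2 (0.12 and 0.14) and all 3 of Col5a1 (0.073 to 0.12). The dimmest probe set of Fmod had a wild-type mean of 3.48. For the probe set that stood for Fmod, the difference was -0.046 without knockout replicate 2. All 3 probe sets of Col14a1 were lower, by -0.098 to -0.073, and both of Col18a1 (-0.086 and -0.076). The -0.098 came from a dim probe set of Col14a1, with a wild-type mean of 4.82. Probe sets of Col1a1 went opposite ways, at -0.0039 and 0.14, as did those of Col3a1 (0.012 and -0.10). Probe sets of one gene share the same 6 RNA samples and are no replicates. When each probe set was tested on its own, the probe sets that stood for these members did not pass. Whether their other probe sets passed was not looked at.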
